A study of Mus musculus with 5 samples.

Results

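The gene body of Pepd was examined for its contacts with the promoter of Cebpa, in 4C-seq libraries of 3T3-L1 cells. Pepd lies on the plus strand at chr7:34912379-35044708 (mm10), and its members were taken as all 2000-bp windows of the deposited files that overlap the annotated gene, which gave 67 windows of the 29870 that at least 1 library lists. 3T3-L1 is a mouse embryo line of preadipocytes that can be turned into fat cells in culture. Undifferentiated preadipocytes (3T3-L1-PRE) and adipocytes (3T3-L1-AD) each gave 2 libraries, and paired values follow the order of replicates 1 and 2. The adipocytes had received insulin at 10 μg/mL, IBMX at 0.5 mM and dexamethasone at 2 μg/mL over 48 h, afterwards insulin alone at the same 10 μg/mL, and were collected on day 7. Both states were grown with fetal bovine serum. No label says whether replicates came from separate cultures, so p-values measure only the spread between these libraries.

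Cebpa encodes C/EBPα, a transcription factor that acts with PPARG to switch on and maintain the fat cell program. Its neighbour Pepd encodes prolidase, an enzyme that splits dipeptides ending in proline, and introns of such neighbours can host enhancers of another gene. In 4C-seq, crosslinked chromatin is cut and religated, and whatever was ligated to a viewpoint of choice is read out, so that the reads in a window rank how often it met the viewpoint.

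The viewpoint was placed by its reading primer, shown because every contact is counted from it, with the DpnII site in capitals.
Reading primer: atctggcccagagagcGATC
It matched chr7:35117558-35117577 on the plus strand, 1735 bp before the annotated start of Cebpa. The annotated start of Pepd lay 205 kb upstream of it, and the window of the Pepd end 72.6 kb upstream. The depth on chromosome 7 was 7667263 and 13715191 reads for preadipocytes, 4901863 and 7549822 for adipocytes. Reads of a window were scaled to 1000000 of these (scaled reads). All 67 Pepd windows were listed in both 3T3-L1-PRE libraries and in replicate 2 of 3T3-L1-AD, whereas replicate 1 of 3T3-L1-AD listed 58. No Pepd window was missing from more than 1 library.

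Pepd as a whole took 12.1% and 11.1% of the chromosome 7 reads in preadipocytes. It took 13.1% and 14.7% in adipocytes. The 95% Wilson intervals, which cover counting error only since PCR reads are not independent molecules, ran from 12.04% to 12.08% and from 11.08% to 11.12% in preadipocytes, and from 13.03% to 13.09% and from 14.70% to 14.75% in adipocytes. Both adipocyte libraries thus lay above both preadipocyte libraries. The mean share was 13.9% ± 1.18 (SD, n = 2) in adipocytes and 11.6% ± 0.68 (SD, n = 2) in preadipocytes, a 1.20-fold difference (two-sided exact permutation test, p = 0.333, which is the smallest that 2 libraries against 2 allow and remained 0.333 after Benjamini-Hochberg adjustment over the 4 tests of this kind). The direction depended on the denominator. The reads of all Pepd windows, also those centred beyond 200 kb, were set against the reads within 200 kb of the viewpoint. This ratio, which is not a true share, was 22.6% and 21.5% in preadipocytes and 19.1% and 21.0% in adipocytes. On that scale both adipocyte libraries lay below both preadipocyte libraries, and within 1 Mb the states overlapped.

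Along the gene, contacts were not spread evenly. The 51 windows from 34912001 to 35014000, which hold exons 1 to 9 and most of intron 9, had a median of 777 and 863 scaled reads in preadipocytes. Their median was 480 and 517 in adipocytes. The 16 windows from 35014001 to 35046000, which hold the end of intron 9 and exons 10 to 15, had a median of 3970 and 3918 in preadipocytes and 4775 and 5054 in adipocytes. The border between these stretches was chosen after the values were seen and is given as a description. The 3′ stretch exceeded the 5′ stretch 5.11-fold and 4.54-fold in preadipocytes, and 9.95-fold and 9.77-fold in adipocytes. The profile was therefore steeper in both adipocyte libraries with this border. Whether the 3′ end was higher in adipocytes depended on the statistic with a wider border, and on the scale. The median of the 20 windows nearest the viewpoint was 3227 and 3041 in preadipocytes and 3168 and 3358 in adipocytes, with overlap. By sum these 20 windows held 7.60% and 6.59% of the chromosome 7 reads in preadipocytes and 8.76% and 10.9% in adipocytes, without overlap. The reads within 200 kb were a scale added after the values were seen. Of these reads the 16 windows held 13.3% and 11.9% in preadipocytes and 12.6% and 14.8% in adipocytes, also with overlap. The 51 windows, which include those centred beyond 200 kb, came to a ratio of 9.25% and 9.60% in preadipocytes. In adipocytes this ratio was 6.51% and 6.16%. The 5′ body was thus lower in both adipocyte libraries on either scale. Its mean per window was 969 and 974 scaled reads in preadipocytes and 873 and 848 in adipocytes, a smaller gap than between the medians. Of the 51 windows, 15 and 13 had under 100 scaled reads in adipocytes, and 0 and 0 in preadipocytes. Windows at the same distances downstream of the viewpoint were also lower, with a median of 562 and 755 in preadipocytes and 245 and 493 in adipocytes.

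The rise lay inside intron 9, the longest intron at 49261 bp. In the window from 35012001 to 35014000, chosen like the next ones after the values were seen, there were 841 and 862 scaled reads in preadipocytes, and in adipocytes none listed and 41.9. In the adjacent window from 35014001 there were 1490 and 1309 in preadipocytes, and 5957 and 3077 in adipocytes. In the window after it, from 35016001, there were 3399 and 4095 in preadipocytes, and 6727 and 4538 in adipocytes. All 4 libraries were thus higher at 35016001 than at 35012001. Single windows of the 5′ body, also picked from the values, reached similar levels in 1 library, such as 3056 at 35010001 in replicate 2 of the adipocytes, 4590 at 34940001 in their replicate 1 and 3431 at 34984001 in replicate 1 of the preadipocytes, so no single border holds for every library. Beyond intron 9, windows centred in intron 11 had a mean of 4190 and 2837 scaled reads in preadipocytes and 4543 and 4408 in adipocytes. Windows centred in intron 12 had a mean of 5939 and 5324 in preadipocytes and 6126 and 9926 in adipocytes. Windows centred in intron 13 had a mean of 6565 and 5457 in preadipocytes and 8683 and 8217 in adipocytes. In 3 of the 4 libraries the mean was higher in each intron nearer the viewpoint, and in 3T3-L1-AD replicate 2 intron 12 was the highest.

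The 20 Pepd windows nearest the viewpoint, which hold the intronic enhancers, carried 63.0% and 59.4% of all Pepd reads in preadipocytes. They carried 67.1% and 73.8% in adipocytes. Both adipocyte libraries had the larger part of their Pepd reads at the 3′ end, 70.4% ± 4.74 against 61.2% ± 2.54 (SD, n = 2 each; two-sided exact permutation test, p = 0.333), and with RPMs the states overlapped. Seen from chromosome 7, the remaining 47 windows held 4.46% and 4.51% of its reads in preadipocytes and 4.30% and 3.86% in adipocytes. The larger Pepd share of the adipocyte libraries thus lay in the 3′ end, while the rest of the gene held a smaller share of chromosome 7 than in either preadipocyte library.

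Distance was matched by taking the windows at the same distances on the other side of the viewpoint, from 35188001 to 35322000. Pepd held 2.37 and 1.99 times the reads of these windows in preadipocytes. It held 2.81 and 2.67 times as many in adipocytes. The upstream side was favoured in every library, and more so in both adipocyte libraries, with a difference between the states of 0.34 in the mean log2 ratio (1.45 ± 0.05 against 1.12 ± 0.18, SD, n = 2 each; two-sided exact permutation test, p = 0.333). With the deposited RPMs in place of reads the difference was 0.0003 and the states overlapped, so it depended on the measure. The RPMs are counts raised to a power, 0.853 and 0.791 in preadipocytes and 0.668 and 0.623 in adipocytes. The lower power flattens differences between windows more in the adipocyte libraries, so RPMs are not a neutral check between the states. The excess was concentrated at the 3′ end. The 16 windows of the 3′ stretch held 4.27 and 3.82 times the reads of their counterparts in preadipocytes, and 5.72 and 6.04 times in adipocytes. The 51 windows of the 5′ stretch held 1.45 and 1.25 times as many in preadipocytes and 1.42 and 1.14 times in adipocytes. Against its nearest coding neighbours, Pepd was below Cebpg, another C/EBP gene between Pepd and the viewpoint, and above the downstream genes Slc7a10, which encodes an amino acid transporter, and Lrp3. Scaled reads per window averaged 1800 and 1657 in preadipocytes and 1950 and 2198 in adipocytes for Pepd. For Cebpg they averaged 3516 and 3847 in preadipocytes and 7554 and 6208 in adipocytes. For Slc7a10 they averaged 1348 and 1183 in preadipocytes and 987 and 1526 in adipocytes. For Lrp3, the lowest of the 4 genes in every library, they averaged 1000 and 847 in preadipocytes and 583 and 877 in adipocytes. Cebpa itself, beside the viewpoint, averaged 14063 and 9558 in preadipocytes and 23116 and 15236 in adipocytes.

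The candidate enhancers of the study's list that lie in Pepd fell into 3 windows. Cebpa-L1-AD-En2 (chr7:35042367-35043640, intron 13) and Cebpa-L1-PRE-En3 (chr7:35042692-35043357), which overlap, lay whole in the window from 35042001 to 35044000, which also holds exon 14. This window had 8590 and 7507 scaled reads in preadipocytes, and 16395 and 14571 in adipocytes. Both adipocyte libraries were above both preadipocyte libraries, with a mean of 15483 ± 1289 against 8048 ± 766 (SD, n = 2 each), a 1.92-fold difference (two-sided exact permutation test, p = 0.333). It ranked first or second among the 67 Pepd windows in every library. Scaled to the reads within 200 kb of the viewpoint, it held 1.61% and 1.45% in preadipocytes and 2.40% and 2.08% in adipocytes, so this window kept its direction where Pepd as a whole did not. A rise on the scale of chromosome 7 reads was not particular to this window. Windows of Cebpg also averaged more in both adipocyte libraries, 7554 and 6208 against 3516 and 3847 in preadipocytes.

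The adjacent window from 35040001 to 35042000 went the other way. It holds 609 of the 609 bp of Cebpa-L1-AD-En1 (chr7:35041210-35041818) and 805 of the 837 bp of Cebpa-L1-PRE-En2 (chr7:35041196-35042032), both in intron 13, and exon 13. It had 4540 and 3407 scaled reads in preadipocytes and 970 and 1863 in adipocytes, with both adipocyte libraries below both preadipocyte libraries and a log2 ratio of the means of -1.49. The ratio was -0.79 with RPMs and lay between -2.03 and -1.09 on leaving out a library, and edgeR gave -0.856 ± 1.12 (SE) with an FDR of 0.55, so the window did not pass. Cebpa-L1-PRE-En1 (chr7:35036225-35036973, intron 12) lay in the window from 35036001 to 35038000, which had 6602 and 6590 in preadipocytes and 6595 and 5570 in adipocytes. Here the states overlapped, and edgeR gave 0.332 ± 0.679 (SE) with an FDR of 0.714. Of the reads within 200 kb this window held 1.24% and 1.27% in preadipocytes and 0.96% and 0.79% in adipocytes, without overlap, as also within 1 Mb and over all listed reads of the genome. On the scale of chromosome 7 reads, then, the AD-En2 window was higher in both adipocyte libraries, the AD-En1 window lower in both, and the order at PRE-En1 depended on the denominator.

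Counts of the 4 libraries were fitted with edgeR's quasi-likelihood test at the 1998 windows listed in both replicates of either state (reliable interaction sites), and differential interaction sites (DISs) were called at an FDR of at most 0.01. DISs were 13.7% of all these sites, with 7.21% higher and 6.51% lower in adipocytes. In Pepd 2 of 67 windows were DISs, which is 2.99%, both higher in adipocytes and none lower. In edgeR 7 of 67 Pepd windows had an unadjusted p under 0.05, against 64% of all sites. DESeq2 called 11 Pepd windows (16.4%), of which 7 were higher and 4 lower, against 69% of all sites. The median log2 fold change of the Pepd windows was 0.22, against -8.24 over all sites, of which 906 have no listed adipocyte reads. With reads scaled to chromosome 7 instead, the median over the same 67 windows was -0.37, so its sign turned with the scaling. At these sites, with all 4 libraries and no block, Pepd thus held a smaller share of calls than all sites in both tools. With replicates as a block the order was reversed, with 3 Pepd windows (4.48%) against 0.4% of all sites.

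The DIS at the end of the gene was the window from 35044001 to 35046000, of which 708 bp are Pepd, with exon 15. It had 2030 and 2425 scaled reads in preadipocytes, and 5532 and 13942 in adipocytes. In edgeR its log2 fold change was 2.75 ± 0.661 (SE) with an FDR of 0.00107, and the adipocyte libraries differed 2.52-fold from each other. The estimate was 1.31 (FDR 0.0656) without 3T3-L1-AD replicate 2, the higher of these, and 1.97 (FDR 0.0184) and 2.28 (FDR 0.112) without the first and the second preadipocyte library, so the call rested on 3 of the 4 libraries. It passed with RLE (FDR 5.33e-05), library totals (0.00346), chromosome 7 reads as library size (0.000726), a replicate block (4.5e-05) and DESeq2 (2.68e-05). It did not pass in the other sets of tested windows. Over every window that 2 or more libraries list, the estimate was 8.02 with an FDR of 0.673. The edgeR FDR was 0.0503 over windows with at least 100 reads in 2 libraries and 0.0161 over reliable sites within 1 Mb. With counts under 13 reads set to 0 it was 0.0142. The other DIS, from 35038001 to 35040000, lies in intron 12 and had 6118 and 6152 in preadipocytes, and 10047 and 16112 in adipocytes. The edgeR estimate was 1.66 ± 0.513 (SE) on the log2 scale, with an FDR of 0.00897. Both were higher in 2 of 2 adipocyte libraries. The AD-En2 window, at 1.42 ± 0.471 (SE) and an edgeR FDR of 0.0143, did not pass. It passed with RLE normalization, library totals, chromosome 7 reads as library size, DESeq2 and a replicate block, and without 3T3-L1-AD replicate 1. It did not pass without any other single library or in the other sets of tested windows. The window from 34984001 to 34986000 in intron 9, named after its values were seen, had 3431 and 1547 scaled reads in preadipocytes, none listed and 17.4 in adipocytes, and with an edgeR FDR of 0.0129 it did not pass. It passed, lower in adipocytes, with RLE, with library totals, with chromosome 7 reads as library size and without either adipocyte library, and not with DESeq2 or a replicate block. Calls moved with single libraries. In these fits 1 state has a single library, so the spread comes from the other state alone. Without 3T3-L1-PRE replicate 1 there were no Pepd DISs in edgeR, while a part of all sites was called. Without its replicate 2 there were also no Pepd DISs, and very few of all sites were called. DESeq2 was run on all 4 libraries only. In edgeR, without 3T3-L1-AD replicate 1 there were 12 (17.9%; 7 higher, 5 lower) against 13.1% of all sites, and without its replicate 2 there were 5 (7.46%), all lower in adipocytes, against 2%. At the FDR threshold, leaving out either adipocyte library thus put Pepd above all sites. At an unadjusted p under 0.05 in edgeR, Pepd held a smaller share than all sites whichever library was left out. The order thus depended on the threshold.

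Windows whose libraries did not overlap between the states were also counted. Of the 67 Pepd windows, 9 (13.4%) were higher in both adipocyte libraries and 24 (35.8%) lower. Among all reliable sites 15.5% were higher and 64.1% lower, and among those within 200 kb of the viewpoint outside Pepd 25.8% were higher and 22% lower. In the 3′ stretch 7 of 16 windows were higher and 3 lower. In the 5′ stretch 2 of 51 were higher and 21 lower. Of the 20 windows nearest the viewpoint 7 were higher and 5 lower, a more even balance than in the 16. The 5′ stretch thus held 21 of the 24 windows lower in adipocytes, but it also holds 51 of the 67 windows. Of the 9 higher ones 7 lay in the 3′ stretch. The border was chosen from these same values, so this split is only a description.

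Significant interaction sites (SISs) were reliable sites with more reads than their distance predicts, from the deposited p-values of the replicates combined with Fisher's method at a q of at most 0.05. In 3T3-L1-PRE 9 of 67 Pepd windows (13.4%) were SISs, against 3.33% of all reliable sites. In 3T3-L1-AD 5 of 58 (8.62%) were SISs, against 2.89%. All 57 and 20 SISs of the states lay within 200 kb of the viewpoint, so a closer background is the reliable sites within 200 kb outside Pepd, of which 48 of 132 (36.4%) were SISs in preadipocytes and 15 of 121 (12.4%) in adipocytes. Pepd was below that background in both states. All Pepd SISs lay in the 3′ stretch. Those of both states were the windows from 35024001, 35034001, 35038001 and 35042001, the last being the AD-En2 window with q-values of 1.95e-41 and 4.33e-12. Those of 3T3-L1-PRE alone were the windows from 35016001, 35018001, 35030001, 35032001 and 35036001, the last being the PRE-En1 window, with q-values between 5.14e-25 and 0.000817. Each of these 5 had a q-value of 1 in adipocytes, a difference that was not tested between the states. The window of the Pepd end was the SIS of 3T3-L1-AD alone, with a q-value of 3.85e-05. Its deposited p-value was 0.985 in replicate 1 and 4.4e-08 in replicate 2, so this call rested on replicate 2. In preadipocytes the deposited q passed in both replicates only at the windows from 35024001, 35030001, 35036001 and 35042001. In adipocytes it passed in both only at 35042001, and at 35024001 in neither (0.245 and 0.407). At all other Pepd SISs of either state it passed in replicate 2 alone. By the deposited q of replicate 1 alone, 4 Pepd windows (5.97%) passed in preadipocytes and 1 (1.72%) in adipocytes, against 1.05% and 1.01% of all reliable sites. By that of replicate 2 alone, 9 (13.4%) and 4 (6.90%) passed, against 3.27% and 2.75%.

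Within the 5′ body the adipocyte replicates differed from each other. Over its 51 windows the larger value of a replicate pair was a median of 1.46 times the smaller in preadipocytes, and 3.44 times in adipocytes over the 42 windows that both list. In the 3′ stretch these medians were 1.20 and 1.61. Spearman's rho between replicates, taken over windows of a single pair of libraries that are not independent, was 0.60 in preadipocytes and 0.27 in adipocytes over the 51 windows, and 0.93 and 0.80 over the 16. The replicates of 3T3-L1-AD were over 10-fold apart at 14 of the 58 Pepd windows that both list, apart from the 9 that 1 of them does not list, and those of 3T3-L1-PRE at none of 67. The window from 34942001 to 34944000, with exon 5, had 1701 and 3590 reads in preadipocytes and 3 and 2 reads in adipocytes, and was the lowest of the 67 Pepd windows in replicate 2 of each state. The window of the Pepd start, from 34912001 to 34914000, had 1854 and 1357 scaled reads in preadipocytes and 344 and 1274 in adipocytes. Both adipocyte libraries were lower there, one of them by little, with a log2 ratio of the means of -0.99. This was -0.33 without 3T3-L1-AD replicate 1 and -2.22 without its replicate 2, and with RPMs the states overlapped.

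The extremes differed by library. The window with the most reads in Pepd was that from 35024001 in 3T3-L1-PRE replicate 1, with 77424 reads, and that of AD-En2 in the other preadipocyte library, with 102959 reads, and in replicate 1 of the adipocytes, with 80366. In 3T3-L1-AD replicate 2 it was the DIS from 35038001, with 121639 reads. The fewest reads were 983, in the window from 34958001, for 3T3-L1-PRE replicate 1. 3T3-L1-AD replicate 1 listed no reads at 9 windows, all in the 5′ stretch. In these 9 windows 3T3-L1-PRE replicate 1 had between 1326 and 26305 reads and 3T3-L1-AD replicate 2 between 5 and 7602 reads. All 9 were thus listed in the 3 other libraries.

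Reads can come only from ends of DpnII fragments, and fragments with an NlaIII site (non-blind) are the ones the second cut can trim. The 67 windows held 322 DpnII sites, between 1 and 13 each, and between 2 and 16 non-blind ends. Spearman's rho between non-blind ends and scaled reads, a description over 67 windows that share a library, lay between 0.26 and 0.33 in the 4 libraries. Over the 16 windows of the 3′ stretch it lay between 0.59 and 0.64. The window from 35038001 had 16 non-blind ends, while the AD-En2 and AD-En1 windows, which differed in direction between the states, each had 6. The 9 windows that 3T3-L1-AD replicate 1 does not list had a median of 5 non-blind ends, against 6 over all Pepd windows.

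The stretch between the guide targets that the study used to repress En2 is shown because it marks the part of the AD-En2 window that was targeted. It spans chr7:35042908-35043173 (mm10, plus strand, 266 bp, intron 13), with the guide targets in capitals.
En2 stretch: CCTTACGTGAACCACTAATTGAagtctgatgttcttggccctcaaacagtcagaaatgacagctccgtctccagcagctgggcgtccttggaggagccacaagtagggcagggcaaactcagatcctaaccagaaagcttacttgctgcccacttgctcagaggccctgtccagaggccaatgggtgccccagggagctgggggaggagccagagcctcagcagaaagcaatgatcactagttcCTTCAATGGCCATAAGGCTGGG
The target of sgRNA2 lies at chr7:35042908-35042929 on the minus strand and that of sgRNA1 at chr7:35043152-35043173 on the plus strand. Each target is printed 5′ to 3′ with its PAM in capitals.
Cebpa-En2-sgRNA2: tcaattagtggttcacgtaAGG
Cebpa-En2-sgRNA1: cttcaatggccataaggctGGG
The stretch holds 2 DpnII sites and no NlaIII site. Reads of the AD-En2 window could therefore start within the stretch, but the deposited files give whole windows, so its own reads were not separated.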

How the data were processed

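4C-seq libraries of 3T3-L1 preadipocytes and adipocytes were analysed, with libraries grouped by the state in their titles. The titles call them mRNA-Seq, but their molecule is genomic DNA and their protocol describes 4C-seq, so they were read as 4C-seq. Inguinal fat tissue was not analysed here. The authors demultiplexed and trimmed the reads, mapped them to mm10 with bowtie2 in pipe4C and counted them with r3Cseq. Read counts per 2000-bp window were deposited without normalization. The RPMs, a deposited signal, were found to be a power of the count, fixed per library and lower in both adipocyte libraries. They served only as an alternative. The deposited p-value and q-value were computed by the authors for each library alone. Windows not listed in a library counted as 0 reads. The smallest count listed was 13 for 3T3-L1-PRE replicate 1, 11 for replicate 2, and 2 for each 3T3-L1-AD library, so an unlisted window may hold fewer reads than that.

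Exons, introns and gene positions came from GENCODE M21, and DpnII (GATC) and NlaIII (CATG) sites, primer and guide positions from the GRCm38 sequence. A reliable site was a window that both replicates of a state list. DISs were tested with edgeR (TMM, Benjamini-Hochberg, FDR at most 0.01) and SISs with Fisher's method (q at most 0.05). Single values were compared with exact permutation tests. Shares have Wilson intervals at 95%. The SE of an edgeR fold change was derived as its size over the root of F. On simulated data the script recovered most planted differences at a small dispersion, but made no call with the common dispersion of these libraries at every site. The real counts gave calls, and this difference was not resolved. Alternatives were other denominators, minimums, normalizations, tested windows and thresholds, DESeq2, a replicate block and each library left out.

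The windows named were those of the listed enhancers in Pepd, of the Pepd start and end, with the most and fewest reads per library, the DISs and the SISs of a single state, and coding genes starting within 200 kb of the viewpoint. The gene, its windows and these lists were chosen with earlier results of these data known. The border of the 3′ stretch and the count of restriction sites were chosen after the values were seen. Fits were run in edgeR 4.0.16 and DESeq2 1.42.0 under R 4.3.3, and the other steps in scipy 1.17.1, pandas 2.3.3 and numpy 2.4.6 under Python 3.11.15.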

Additional observations from a re-analysis of the deposited data

How the results depend on the processing

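Leaving out single libraries, the log2 ratio of the Pepd share lay between 0.17 and 0.35, the difference against the downstream windows between 0.21 and 0.46, the ratio of the 3′ end share between 0.13 and 0.27 and that of the AD-En2 window between 0.85 and 1.04. The log2 ratio for Pepd turned to -0.14 with the reads within 200 kb of the viewpoint as denominator. All Pepd windows were counted there, also those centred beyond 200 kb, so no true share was compared. With the reads within 1 Mb the log2 ratio for Pepd was 0.072. With RPMs the difference against the downstream windows was 0.0003 with overlapping states, the 3′ end share was 0.071 with overlap as well, and the ratio of the PRE-En1 window turned from -0.12 to 0.016. The AD-En2 window kept its direction under every alternative run, from 0.55 within 200 kb upward.

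Pepd DISs were the least stable count. From 2, beside 13.7% of all sites, they became 4 with RLE (6.46% of all sites), with library totals (22.1%) and with chromosome 7 reads as library size (22.1%), 11 with DESeq2 (69%) and 5 at an FDR of 0.05 (58.2%). In edgeR they became 0 over every window that 2 or more libraries list (0 at an unadjusted p under 0.05, beside 4.92% of all sites). They also became 0 over windows with at least 100 reads in 2 libraries (4, beside 31.8%) and over reliable sites within 1 Mb (10, beside 33.1%). So they did, chosen after seeing the data, with counts under 13 reads set to 0 (8, beside 67%). At the FDR threshold 0.407% of all sites were called within 1 Mb and 0% in the 3 others, so the absence of DISs is not particular to Pepd. With a library left out they lay between 0 and 12. The cause was not tested. The labels give the states the same replicate numbers, but with 2 pairs they share only a number. The correlation of deviations of same-numbered libraries was 0.0064 over 1998 sites, and the replicate block gave 3 DISs (0.4% of all sites). SISs numbered 4 for preadipocytes and 1 for adipocytes when the deposited q had to pass in both replicates (0.994% and 1.01% of all reliable sites). With 1 replicate alone they lay between 4 and 9 for preadipocytes (1.05% to 3.27% of all reliable sites). For adipocytes they lay between 1 and 4 (1.01% to 2.75%). With 2 libraries per state no exact p can pass 0.05.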
